A study of Mus musculus with 1536 samples.

Results

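The 10 genes described here encode receptors for noradrenaline, dopamine and histamine: Adra1a, Adra1b, Adra1d, Adra2a, Adra2c and Adrb1 (adrenergic), Drd1 and Drd2 (dopamine), and Hrh1 and Hrh3 (histamine). They were taken by symbol from the 53263 genes of the expression table. No measured value set the choice, but earlier results of these data were known when it was made. All 10 were among the 25522 genes that had a read in 3 or more cells. Their transcripts were followed in 999 single serotonin neurons of the mouse raphe. The neurons came from C57BL/6J mice aged 40 to 45 days carrying a Cre driven by Sert, the serotonin transporter gene, which turns on the red protein tdTomato from the Ai14 allele, so both groups below share these alleles, strain and age, and any cell that has used Sert can be labelled. Each fluorescent cell was sorted alone and sequenced by Smart-seq2, a full-length method without molecular identifiers, so a count is of reads and not of molecules. The dissections were of the principal dorsal raphe alone (pDR, 290 cells on 5 plates) and of the whole dorsal raphe (709 cells on 11 plates). The labels of the second name the dorsal raphe only, and the study's design adds the median raphe, so it is called DR and MR here. No treatment is listed, each dissection pools several brains that the labels do not tie to cells, and every plate holds cells of 1 dissection, so plate, animal and dissection cannot be told apart.

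Noradrenaline from the brainstem, dopamine from the midbrain and histamine from the hypothalamus all reach the raphe and act there through G protein-coupled receptors. The alpha1 receptors and the histamine H1 receptor (Hrh1) couple mainly to Gq, which activates phospholipase C and tends to depolarise serotonin neurons. The alpha2 receptors, the dopamine D2 receptor (Drd2) and the histamine H3 receptor (Hrh3) couple to Gi and Go, which lower cyclic AMP, open GIRK potassium channels and restrain transmitter release. The beta1 receptor (Adrb1) and the dopamine D1 receptor (Drd1) couple to Gs and raise cyclic AMP.

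The 999 libraries held 96834 to 2780443 reads on genes, with a median of 827283, and a median of 9554 genes. Of the serotonin neuron markers, Tph2 and Fev had a read in all 999 cells, Slc6a4 in 997 and Slc18a2 in 998. The summed level of these 4 genes was 13373 to 18673 CPM (reads of a gene scaled to 1000000 reads of its cell) over the 16 plates. The oligodendrocyte genes Mag or Mog had a read in 42 cells, 8 from pDR and 34 from DR and MR. Cells are not replicates, so no p-value is given: shares carry exact Clopper-Pearson 95% intervals, which cover counting error only, and the number of plates that moved the same way stands beside each difference. For a share of 0 the limit given is instead 3 divided by the number of cells. It is lower than the upper end of the exact interval. No other cell type was sorted, so the share of cells with a stray read cannot be measured in cells that should lack a receptor.

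Among the Gq-coupled receptors, Adra1b and Hrh1 were detected in most cells, Adra1a in a minority and Adra1d almost nowhere. Adra1b (chromosome 11, 43774606 to 43901210, GRCm38, minus strand) had at least 1 read in 915 of 999 cells, or 91.6% (89.7% to 93.2%), and in 67.3% of the cells of the lowest plate, 95.2% of the median plate and 100% of the highest. Hrh1 (chromosome 6, 114397936 to 114483296, plus strand) had a read in 779 cells, or 78.0% (75.3% to 80.5%), with plates from 60.7% through a median of 78.1% to 89.4%. Adra1a (chromosome 14, 66635251 to 66771168, plus strand) had a read in 189 cells, or 18.9% (16.5% to 21.5%). Its plates ran from 0% through 12.8% to 50.0%. Adra1d (chromosome 2, 131545850 to 131562283, minus strand) had a read in 10 cells, or 1.00% (0.481% to 1.83%), and 5 of these held only 1 read.

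All 4 Gi-coupled members were detected on every plate. Hrh3 (chromosome 2, 180099465 to 180104488, minus strand), which encodes a receptor known as a brake on transmitter release, had a read in 884 cells, or 88.5% (86.3% to 90.4%), with plates from 75.0% through 87.9% to 95.7%. The alpha2 genes Adra2c (chromosome 5, 35278319 to 35281763, plus strand) and Adra2a (chromosome 19, 54044151 to 54048982, plus strand) had a read in 693 cells, or 69.4% (66.4% to 72.2%), and in 670 cells, or 67.1% (64.1% to 70.0%). On the plates, Adra2c ran from 33.3% through 65.5% to 89.2% and Adra2a from 44.4% through 66.3% to 83.5%. Drd2 (chromosome 9, 49340627 to 49408177, plus strand) had a read in 314 cells, or 31.4% (28.6% to 34.4%), with plates from 7.41% through 31.8% to 43.5%. In the plot of detection by plate the ranges of Adra1b, Hrh3, Hrh1, Adra2c and Adra2a overlapped, as did those of Drd2 and Adra1a. The range of Adra2c also overlapped those of Drd2 and Adra1a, and that of Adra2a overlapped Adra1a.

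**Figure D1:**
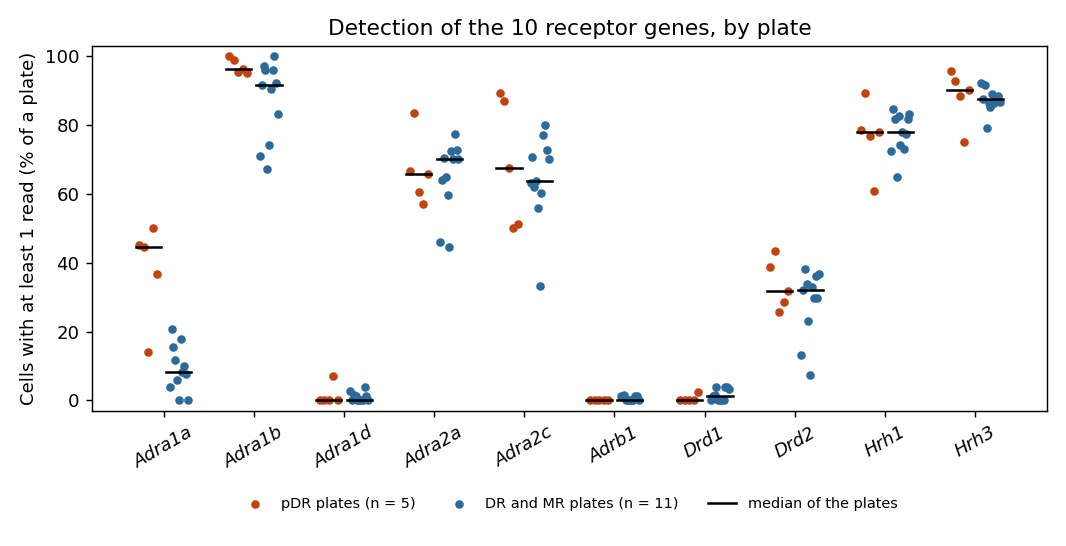
The share of cells with at least 1 read (vertical axis, % of the cells of a plate) is plotted for each of the 10 receptor genes (horizontal axis), 1 point a plate, for the 5 pDR plates and the 11 DR and MR plates, with black bars at the medians. Adra1a has a median of 44.7% on pDR and 8.11% on DR and MR plates, and Adra1d, Adrb1 and Drd1 lie near 0% on both.

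The Gs-coupled members were nearly absent. Drd1 (chromosome 13, 54051183 to 54055705, minus strand) had a read in 13 cells, or 1.30% (0.695% to 2.21%), and Adrb1 (chromosome 19, 56722199 to 56733113, plus strand) in 5 cells, or 0.501% (0.163% to 1.16%). No pDR cell had a read of Adrb1, which allows a share of up to 1.03% of the 290. Among receptors of the same families that are not members, the Gs-coupled Hrh2 was found in 231 cells, or 23.1% (20.5% to 25.9%). Drd3 had a read in 13 cells, and Adrb3, Drd4, Drd5 and Hrh4 in 1 or 2 cells each. Adra2b had a read in 0 of 999 cells, which allows a share of up to 0.30%.

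Levels of different genes were compared as CPM per kilobase of annotated exon, with plates weighted equally. Hrh3 stood highest, at 17.7 CPM per kilobase, with plates from 10.9 to 32.4, and was above the next gene on 16 of 16 plates. Adra1b at 7.93 (4.72 to 12.2) and Hrh1 at 7.90 (5.85 to 10.6) could not be ordered, since Adra1b was the higher on 7 of 16 plates. Adra2c at 4.11 (1.81 to 6.18) was above Adra2a at 2.63 (1.56 to 4.19) on 16 of 16 plates, and Adra2a was above Drd2 at 2.16 (0.405 to 3.91) on 14. Adra1a followed at 0.278, with a range over plates of 0 to 0.814, below Drd2 on 16 of 16 plates. Drd1, Adra1d and Adrb1 lay at 0.0369, 0.0123 and 0.00560, and their plates overlapped. The exons of Hrh3 share 349 of 3146 bases, and those of Adra1d 147 of 1899 bases, with the antisense genes Gm17180 and Gm14285. Counting ignored strand, so reads of these pairs cannot be told apart; both antisense genes are listed at 0 in all cells.

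The dissections differed for Adra1a and Hrh3. The mean level of Adra1a on pDR plates was 3.47 CPM on the lowest, 5.10 on the median and 7.11 on the highest, against 0, 0.826 and 2.31 CPM on DR and MR plates, a log2 ratio of 1.57 (means plus 1 CPM). Hrh3 had 74.3, 83.7 and 102 CPM on pDR plates against 34.2, 40.8 and 55.5 CPM, a log2 ratio of 0.97. For both genes every pDR plate lay above every DR and MR plate. Adra1a had a read in 39.7% (34.0% to 45.5%) of pDR and 10.4% (8.28% to 12.9%) of DR and MR cells, and after thinning to 250000 reads in 32.5% and 8.84%. Of the 10 members these were the 2 with plates that did not overlap, both higher in pDR, where 2.43% of all genes tested were higher in pDR without overlap and 2.54% lower. One member, Adra1a, was higher in pDR beyond a log2 ratio of 1, against 1.84% of all genes, and 0 were lower, against 1.10%. For the other 8 members the plates overlapped, with log2 ratios from -0.18 for Drd1 to 0.51 for Drd2. The median log2 ratio was 0.14 over the members and 0.01 over all genes.

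The share of cells with reads of the class genes moved with dissection too. Trh, which encodes the precursor of thyrotropin-releasing hormone, had a read in 33.8% of pDR and 5.64% of DR and MR cells, and Gad1 or Gad2, the enzymes that make GABA, in 63.1% and 23.1%. Among cells with a read of Trh, Adra1a averaged 11.7 CPM on 5 pDR plates (7.99 to 16.6) and 6.08 CPM on the 5 DR and MR plates with at least 5 such cells (0.783 to 8.59), and these ranges overlapped. Among cells without Trh it averaged 2.58 and 0.834 CPM, a log2 ratio of 0.97. Hrh3 averaged 138 and 92.2 CPM in cells with Trh, with no overlap of plates (132 to 150 against 66.1 to 115). In cells with neither Trh nor Gad reads Hrh3 averaged 35.9 CPM on pDR plates (27.6 to 42.6) and 36.6 CPM on DR and MR plates (30.0 to 49.1), a log2 ratio of -0.03. Within that set of 640 cells the Hrh3 plates of both dissections overlapped. Adra1a in the same set averaged 1.91 CPM on pDR plates and 0.657 CPM on DR and MR plates (log2 ratio 0.81). Among cells without Trh, Hrh3 averaged 57.8 and 39.5 CPM (0.54). With Gad but not Trh reads, Hrh3 averaged 81.4 and 51.9 CPM (0.64). The part of class makeup in the dissection difference was not tested. These sets were formed after the values had been seen.

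Cells were next divided by a read of each class gene, within plates. Trh-positive cells (138 cells, compared on 10 plates) had more Adra1a and more Hrh3. The mean level of Adra1a over the 10 plates was 0.783 CPM on the lowest, 8.52 on the median and 16.6 on the highest in Trh-positive cells, against 0, 0.988 and 5.56 CPM in Trh-negative cells, a log2 ratio of 1.94, higher on 10 of 10 plates. Hrh3 had 66.1, 123 and 150 CPM against 32.0, 43.9 and 70.5 CPM, a log2 ratio of 1.25, also higher on 10 of 10. These 2 members were beyond a log2 ratio of 1, against 1.01% of all genes, and 0 were below it, against 1.13%. Hrh1 (log2 ratio 0.81, higher on 10 plates), Adra2a (0.76, on 9), Adra2c (0.39, on 8) and Adra1b (0.32, on 9) were short of that threshold. Drd2 had a log2 ratio of -0.44 and was lower on 6 plates and higher on 4. In shares of cells, Adra1a had a read in 93 of 138 Trh-positive cells, or 67.4% (58.9% to 75.1%), and in 11.1% (9.13% to 13.4%) of the 861 others. Thinning every cell to 250000 reads, which leaves out 9 shallower cells in all, gave 58.0% and 8.92%. These shares pool all plates, and 98 of the Trh-positive and 192 of the Trh-negative cells were from pDR. Median depth was 798688 reads in Trh-positive and 838296 reads in Trh-negative cells.

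Gad-positive cells (347 cells, 16 plates) overlapped with the Trh class, since 126 of the 138 Trh-positive cells had Gad reads. Adra1a was at 0, 3.83 and 10.4 CPM on the lowest, median and highest plate in Gad-positive cells and at 0, 0.793 and 3.56 CPM in Gad-negative cells, a log2 ratio of 1.26, higher on 12 of 16 plates and lower on 2. Hrh3 was at 34.8, 62.7 and 135 CPM against 27.6, 36.7 and 49.1 CPM, a log2 ratio of 1.03, higher on 14 of 16. For Hrh3 the log2 ratio was 1.61 on pDR plates and 0.67 on DR and MR plates, a gap that was not tested. Again 2 members were beyond a log2 ratio of 1, against 0.733% of all genes, and 0 below, against 0.165%. Without plate SER12, SER13, SER25, SER40 or SER63 the count was 1. Split by both genes, Adra1a had a read in 71.4% (62.7% to 79.1%) of the 126 cells with Trh and Gad, 25.0% (5.49% to 57.2%) of the 12 with Trh alone, 19.9% (14.9% to 25.8%) of the 221 with Gad alone and 8.12% (6.13% to 10.5%) of the 640 with neither. The share was highest where both were present, but these sets pool all plates and differ in dissection. From pDR came 97 of the 126 cells, 1 of the 12, 86 of the 221 and 106 of the 640. On pDR plates with at least 5 such cells, Adra1a averaged 11.8 CPM with both genes, 3.48 CPM with Gad alone and 1.91 CPM with neither.

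**Figure D2:**
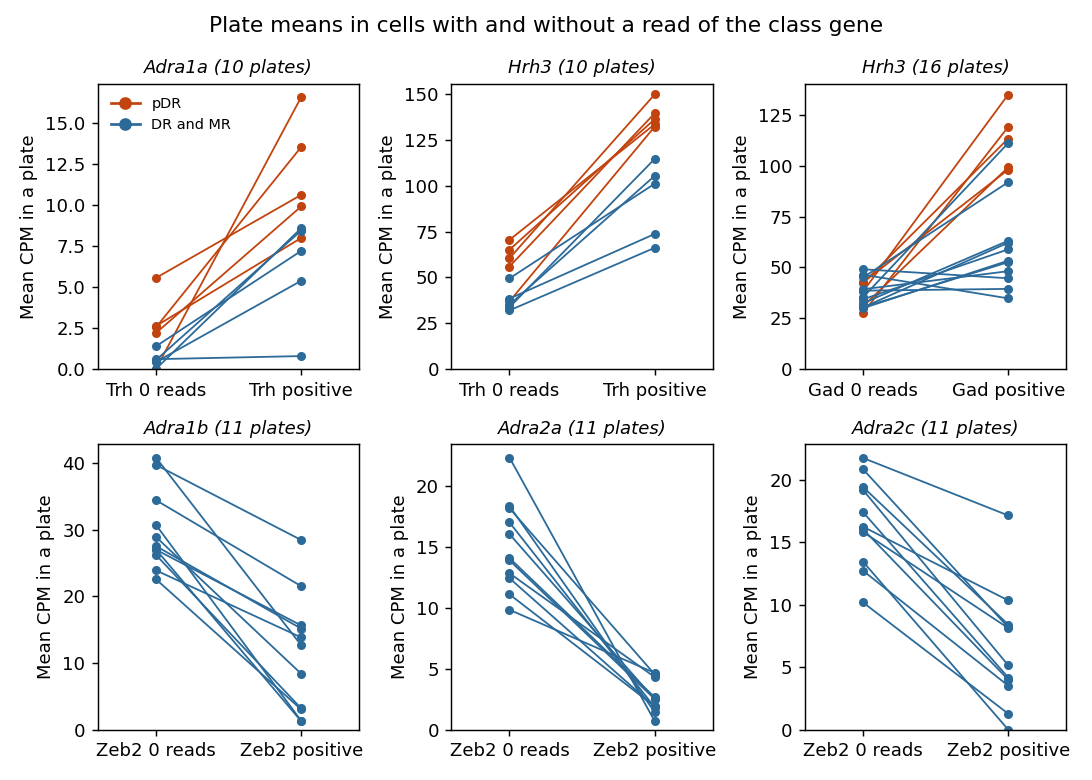
Each line joins the mean level (vertical axis, CPM, linear from 0) of a receptor gene on 1 plate in cells with 0 reads of the class gene and in cells with at least 1 read, for pDR and DR and MR plates. Adra1a and Hrh3 were higher in Trh-positive cells on 10 of 10 plates and Hrh3 in Gad-positive cells on 14 of 16, and Adra1b, Adra2a and Adra2c were lower in Zeb2-positive cells on 11 of 11.

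Slc17a8 encodes the vesicular glutamate transporter VGLUT3, and Crhr2 a receptor for corticotropin-releasing factor and the urocortins. Of the 406 Crhr2-positive cells, 344 had Slc17a8 reads. In neither class was a member beyond a log2 ratio of 1. The background for higher and lower was 0.270% and 0.584% of all genes in the Slc17a8 comparison (649 cells, 16 plates) and 0.325% and 0.686% in the Crhr2 comparison (16 plates). Adra1a came closest, at a log2 ratio of -0.95 in both. It was lower on 13 plates in Slc17a8-positive cells and on 12 plates in Crhr2-positive cells. Hrh1 was lower on 14 of 16 plates in both classes, with medians over plates of 26.5 against 52.4 CPM for Slc17a8 (log2 ratio -0.86) and 27.2 against 39.7 CPM for Crhr2 (-0.54). Its share of cells ran the other way in the Crhr2 class, at 83.3% (79.3% to 86.7%) of positive and 74.4% (70.7% to 77.8%) of negative cells, and at 79.5% and 73.4% after thinning.

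Drd2 had the highest log2 ratio of the 10 members in Crhr2-positive cells. Its plate means were 0, 7.56 and 13.6 CPM (lowest, median, highest) in Crhr2-positive cells and 0.571, 4.29 and 8.07 CPM in Crhr2-negative cells, a log2 ratio of 0.68, higher on 11 of 16 plates. It had a read in 43.6% (38.7% to 48.6%) of Crhr2-positive and 23.1% (19.8% to 26.7%) of Crhr2-negative cells, and thinned to 250000 reads in 38.6% and 21.8%. All 10 cells with an Adra1d read were both Slc17a8-positive and Crhr2-positive, too few for a level. Crhr2-positive cells were the deeper, with a median of 915354 reads against 777462 reads in Crhr2-negative cells.

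**Figure D3:**
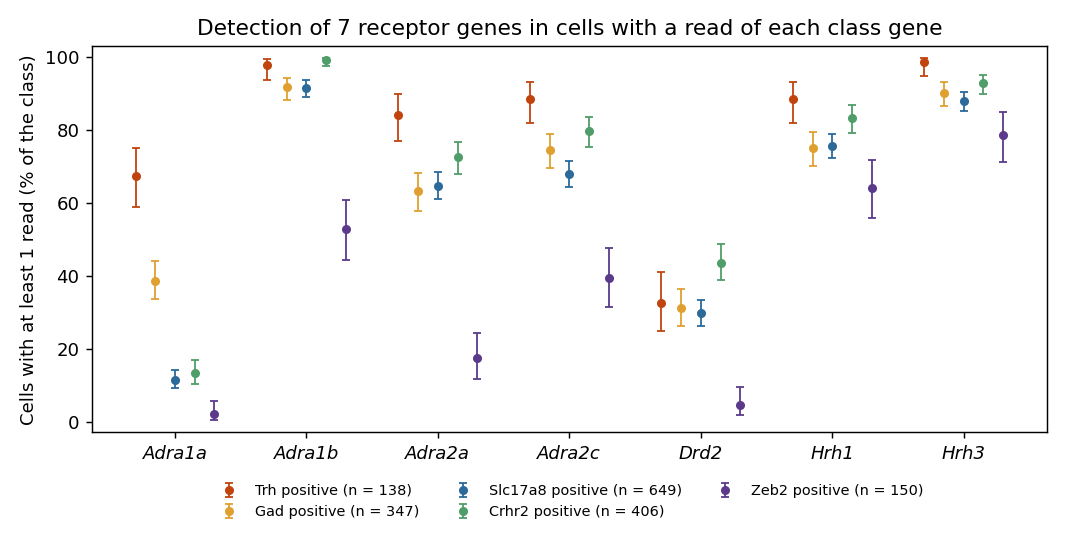
The share of cells with at least 1 read (vertical axis, % of the class) of the 7 receptor genes found in over 5% of cells (horizontal axis) is shown in the 5 classes of cells, which overlap in membership; bars are exact 95% intervals. Adra1a is highest in Trh-positive cells at 67.4%, and all 7 genes are lowest in Zeb2-positive cells. Cells of all plates and both dissections are pooled.

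Zeb2-positive cells had low levels of most members. Zeb2 encodes a zinc finger transcription factor, and 147 of its 150 positive cells were from the DR and MR dissection, so the comparison rests on the 11 plates of that dissection, with 7 to 44 positive cells each. Adra2a was at 0.694, 2.49 and 4.66 CPM on the lowest, median and highest plate in Zeb2-positive cells and at 9.83, 14.1 and 22.3 CPM in Zeb2-negative cells, a log2 ratio of -2.15. Adra1b was at 1.27, 12.7 and 28.4 CPM against 22.6, 27.5 and 40.8 CPM (-1.33), and Adra2c at 0, 5.15 and 17.1 CPM against 10.2, 16.2 and 21.8 CPM (-1.25). The plates of Adra2a did not overlap between the sets, while those of Adra1b and Adra2c did. Hrh1 (-1.19) and Hrh3 (-1.01) were lower as well, and these 5 genes were lower on 11 of 11 plates. Drd2 had a log2 ratio of -1.17 and was lower on 9 plates. Thus 6 of 10 members were lower beyond a log2 ratio of 1, against 2.96% of all genes, and 0 were higher, against 1.52%. Without plate SER55, SER57, SER60, SER64 or SER67 Hrh3 was short of that threshold and the count was 5. The median log2 ratio of the members was -1.09, and that of all genes -0.01.

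Shares of cells differed to unequal degrees. Unlike the levels above, they pool all 16 plates. From pDR came 287 of the 849 Zeb2-negative and 3 of the 150 Zeb2-positive cells, so dissection is mixed into these shares. In Zeb2-positive cells Adra2a had a read in 17.3% (11.6% to 24.4%), against 75.9% (72.8% to 78.7%) of Zeb2-negative cells, and thinned to 250000 reads in 14.0% against 68.6%. Drd2 had a read in 4.67% (1.90% to 9.38%) against 36.2% (32.9% to 39.5%), and Adra1b in 52.7% (44.4% to 60.9%) against 98.5% (97.4% to 99.2%). Hrh3 was at 78.7% (71.2% to 84.9%) against 90.2% (88.0% to 92.1%), and Hrh1 at 64.0% (55.8% to 71.7%) against 80.4% (77.6% to 83.1%). So Hrh3, Hrh1 and Adra1b were the members found in most Zeb2-positive cells. Of 150 Zeb2-positive cells 0 had a read of Drd1, which allows up to 2.00%. Median depth was 864648 reads in Zeb2-positive and 820062 reads in Zeb2-negative cells.

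Signalling genes moved in both directions. Of 10 genes of the Gq pathway, the phospholipase C genes Plcb3 (log2 ratio 2.35) and Plcb4 (1.95) were higher in Zeb2-positive cells on 11 of 11 plates and 0 were lower beyond a log2 ratio of 1. Of 9 tested genes of the Gi and GIRK pathway, Rgs4 (-1.24), a regulator of G protein signalling, and the GIRK channel gene Kcnj6 (-1.06) were lower on 11 and 10 plates. Of 10 Gs pathway genes 0 passed. Of all genes, 1.52% were higher and 2.96% lower beyond a log2 ratio of 1 with Zeb2. In the Trh comparison 3 of 10 Gq genes were lower (Prkce, Prkcb and Plcb1, log2 ratios -1.16, -1.13 and -1.12), against 1.13% of all genes. Plcb1 was also lower in Gad-positive cells (-1.21, 14 of 16 plates) and higher in Slc17a8-positive (2.08, 15 of 16) and Crhr2-positive cells (1.72, 16 of 16). The adenylyl cyclase gene Adcy8 was lower in the latter classes (-1.21 and -1.48, both on 15 of 16 plates). Of all genes, 0.165% were lower beyond that threshold with Gad. With Slc17a8 and Crhr2, 0.270% and 0.325% were higher, and 0.584% and 0.686% lower. Between dissections 2 of 10 Gq genes, Prkce (-1.88) and Plcb3 (-1.25), were lower in pDR, against 1.10% of all genes. The GIRK gene Kcnj9 (-1.13) was lower too, as 1 of 9 tested genes of its list.

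Glial transcripts also moved with Zeb2: Mag had a log2 ratio of 3.42 in Zeb2-positive cells and was higher on 8 of 11 plates, Mog one of 2.34 and was higher on 1 plate and lower on 5, and Mbp one of -1.67 and was lower on 6. Leaving out the 42 cells with a read of Mag or Mog, an alternative added after seeing the data, gave a log2 ratio of -2.25 for Adra2a and a count of 6 members. The part of these transcripts in the result was otherwise not tested. With Trh, Mbp was lower (-2.33, on 8 of 10 plates), and without those 42 cells Adra1a kept a log2 ratio of 1.83 and Hrh3 of 1.22.

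Since several members were low together in Zeb2-positive cells, their promoter windows (RefSeq, 250 bases before to 50 after each start, GRCm38.p6) were searched for CACCTG, the core that ZEB2 is known to bind, on both strands (CAGGTG when read from the other strand). Windows were found for 8 of the 10 members, all but Adra1a and Adra1d. The letters occurred in 2 of these 8 genes, Drd1 and Hrh1, and in 22.3% of the 13190 genes tested that had a window. A gene counted if any of its windows matched. By window, the letters occurred in 2 of 13 windows of members and in 20.2% of all 32851 windows. The window of Adra2a, the member with the lowest log2 ratio, and the Hrh1 window that holds the match are printed with the match in capitals (chr19:54045009-54045308, plus strand, which lies inside the GENCODE gene, and chr6:114397836-114398135, plus strand). A match is a description of letters only.
Adra2a: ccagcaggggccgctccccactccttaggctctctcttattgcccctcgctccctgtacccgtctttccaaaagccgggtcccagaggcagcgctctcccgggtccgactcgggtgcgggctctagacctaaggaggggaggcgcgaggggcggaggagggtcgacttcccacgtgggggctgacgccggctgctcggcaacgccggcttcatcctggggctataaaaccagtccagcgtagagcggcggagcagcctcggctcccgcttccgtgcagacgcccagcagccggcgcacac
Hrh1: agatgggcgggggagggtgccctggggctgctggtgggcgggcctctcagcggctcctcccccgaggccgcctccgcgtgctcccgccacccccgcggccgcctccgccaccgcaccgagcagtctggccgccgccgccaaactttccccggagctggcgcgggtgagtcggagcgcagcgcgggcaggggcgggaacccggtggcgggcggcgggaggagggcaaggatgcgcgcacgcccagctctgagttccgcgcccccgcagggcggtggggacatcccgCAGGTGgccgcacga

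Most cells carried transcripts of several members. The median was 5 members per cell, with a range of 0 to 8, and 313 cells, or 31.3%, had exactly 5. An adrenergic member had a read in 94.2% (92.6% to 95.6%) of cells, a histamine member in 95.3% (93.8% to 96.5%) and a dopamine member in 32.3% (29.4% to 35.3%). At least 1 Gq-coupled and 1 Gi-coupled member were found together in 942 cells, or 94.3% (92.7% to 95.7%), and a Gs-coupled member in 18 cells, or 1.80% (1.07% to 2.83%). There were 88 distinct sets, of which 36 occurred in 1 cell. The most frequent, Adra1b, Adra2a, Adra2c, Hrh1 and Hrh3, was that of 183 cells on all 16 plates, or 18.3% (16.0% to 20.9%), and the same set with Drd2 that of 128 cells, or 12.8% (10.8% to 15.0%). Next was the set with Adra1a in place of Drd2, in 64 cells, of which 36 were from pDR.

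The leading sets differed between classes. In Trh-positive cells the set with Adra1a led, in 45 of 138 cells, or 32.6% (24.9% to 41.1%), and the median was 6 members. In Zeb2-positive cells the pair Hrh1 and Hrh3 led, in 26 of 150 cells, or 17.3% (11.6% to 24.4%), and the median was 3 members. After thinning to 250000 reads these medians were 5 and 2. At most 2 members were detected in 48.7% (40.4% to 57.0%) of Zeb2-positive cells and in 6.48% (4.92% to 8.35%) of Zeb2-negative cells. Cells of all plates were pooled for these sets and shares, so dissection is mixed into them. The 95 cells with no read of any class gene had a median of 5 members, and led with the same set as the whole table, in 26.3% (17.8% to 36.4%).

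**Figure D4:**
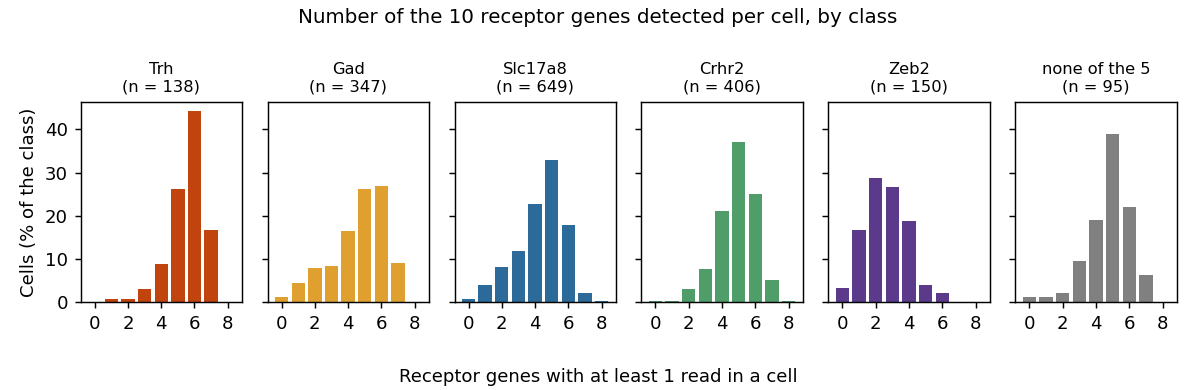
Bars give the share of cells (vertical axis, % of the class) with each number of the 10 receptor genes detected (horizontal axis, 0 to 8) in the 5 overlapping classes and in the 95 cells of none. The distribution peaks at 6 in Trh-positive cells, at 5 in Slc17a8-positive and Crhr2-positive cells and at 2 in Zeb2-positive cells.

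Pairs of members were compared with the number of shared cells that the product of their shares within each plate would give. Over that number on 16 of 16 plates were 4 pairs, picked out after their values were seen. Adra2a and Adra2c shared 523 cells against 472 by the product. Drd2 and Hrh1 shared 284 cells against 247, Drd2 and Adra2c 254 against 225, and Adra2a and Hrh1 563 against 526. Adra1a shared 147 cells with Hrh1 against 149.6, over on 6 plates and under on 8, and 182 cells with Hrh3 against 169.6. Detection of any pair shares the depth and the makeup of the cells, so these are descriptions.

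Across all 999 cells, likeness to the 8087 genes with a mean over 10 CPM was measured as Pearson's r of ln(CPM+1), with no test, since cells share plate, depth and dissection. Adra1a was most like Asb4 (r = 0.510), Trh (0.487) and Pcsk6 (0.460), and Hrh3 most like Pcsk6 (0.487), Tmem114 (0.421) and Ctsl (0.386). Adra1b was most like Necab2 (0.649), Chga (0.648) and Cdk14 (0.617). Adra2a was most like Sema5a (0.456), Car10 (0.423) and Atp2b1 (0.416), Adra2c like Necab2 (0.364), Npffr1 (0.357) and Ncald (0.345), and Hrh1 like Hcrtr1 (0.386), Tmem176a (0.382) and Pea15a (0.379). For Drd2 0 genes reached r = 0.3. With values centred within plates the same 3 genes led for Adra1a, Adra1b, Hrh1 and Hrh3, and not for Adra2a and Adra2c. By Spearman's rho the leading 3 changed for each of these 6 members. Cdk14 then ranked 89 for Adra1b (rho = 0.283), Tmem176a and Pea15a ranked 16 and 20 for Hrh1, Ctsl ranked 9 for Hrh3, Car10 ranked 14 for Adra2a and Necab2 ranked 11 for Adra2c. Trh and Asb4 ranked 1 and 2 for Adra1a, and Pcsk6 and Tmem114 still ranked 1 and 2 for Hrh3.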

How the data were processed

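The authors aligned reads to mm10 (GRCm38) with STAR 2.6.1a after bcl2fastq 2.19.0.316 and counted them on genes with HTSeq 0.11.2, ignoring strand, per the labels and the methods; genes of the Y chromosome were removed. They deposited CPM. All values above 0 (100%) were whole multiples, within 0.001, of the value of 1 read, so reads were recovered, but no count test was run, since cells are not tied to the several brains of a dissection, which was treated as 1 sample. Of 1536 labelled cells (480 pDR, 1056 DR and MR) the table holds 999, and 537 were not analysed here. All had at least 50000 reads and 300 genes. Doublets were not sought, as cells were sorted singly.

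A gene was detected with 1 read. Levels are mean CPM with plates weighted equally, and log2 ratios are of these means plus 1 CPM. Classes were compared within plates with at least 5 positive and 5 negative cells. Coordinates and exons are from GENCODE M21; the authors' annotation is not given in the sources used here. Members, class genes and lists were chosen with earlier results of these data known. Named genes are the members, the class genes, the 3 genes of highest r (at least 0.3) and genes of the lists beyond a log2 ratio of 1, at most 5 a list. Some genes of the lists are not reported here. Contrasts were tested on simulated data, with changes planted and scored only in genes of higher level than most members. How they behave at the level of the lower members was not tested. Alternatives were thinning, pooling, other pseudocounts and detection limits, single dissections and each plate left out. Python 3.11.15, NumPy 2.4.6, SciPy 1.17.1, pandas 2.3.3 and matplotlib 3.10.9 were used.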

Additional observations from a re-analysis of the deposited data

Results flagged for a closer look

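Among the 5 pDR plates, 1 plate lay far from the others for 2 members. Adra1d averaged 0.0407 CPM on plate SER39 and 0 CPM on the other 4 pDR plates, and Drd1 averaged 0.192 CPM on plate SER40 and 0 CPM on the other 4. Chance sets apart about 1 in 20 groups of spread values by this measure, but that rate does not hold here, since with 4 plates at 0 any read on the remaining plate sets it apart. In all, 2 pDR cells had a read of Adra1d and 1 of Drd1. The 11 DR and MR plates are too many for it.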

How the results depend on the processing

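The median of 5 members per cell became 4 with cells thinned to 250000 reads, with at least 5 reads and with at least 10 CPM. Counts of members beyond a log2 ratio of 1 (2 for Trh, 2 for Gad, 0 for Slc17a8, 0 for Crhr2, 6 for Zeb2, 1 for dissection) moved as follows, and the cause was not tested. The alternatives were run for the members only. Without the share of all genes under each setting, a moved count cannot be read as particular to the members. Slc17a8 gave 1 with thinning, pooled cells, pDR plates only, DR and MR plates only, 0.1 CPM as pseudocount and the mean of ln(CPM+1). Crhr2 gave 1 with pDR plates only and with 0.1 CPM. Gad gave 1 with DR and MR plates only. Dissection gave 2 with thinning, pooled cells and 0.1 CPM, and 0 without Trh-positive cells, a setting added after seeing the data. With 10 CPM as pseudocount Trh gave 1 and Gad, Zeb2 and dissection 0, as low genes are compressed by it. Zeb2 gave 7 with pooled cells and 8 with 0.1 CPM, where Adra1a (-1.85) and Drd1 (-1.59) passed too. With the mean of ln(CPM+1) Trh gave 4 and Gad and dissection 0. With each plate left out, the median stayed at 5 and the counts ran from 2 to 2 for Trh, 1 to 2 for Gad, 0 to 1 for Slc17a8 and Crhr2, 5 to 6 for Zeb2 (5 where Hrh3 was short) and 1 to 2 for dissection. The Slc17a8 count was 1 without SER12 or SER13, the Crhr2 count 1 without SER40, SER48 or SER57, and the dissection count 2 without SER39, SER40, SER50 or SER63, where Hrh3 passed. No called ratio reversed under any alternative run. Classes were compared within plates. No paired analysis was possible because, between dissections, each plate belongs to 1 dissection. The depth of the libraries limits the rare members: 5 of 10 Adra1d cells and 2 of 5 Adrb1 cells held 1 read.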

Other observations

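Cells with few members are described here as values, in sets chosen after the data were seen. Of the 8 cells with 0 members, all 8 were from the DR and MR dissection, 5 had a read of Zeb2, and the median depth was 462728 reads, against 827283 over all cells. Of the 38 cells with 1 member, 25 had a read of Zeb2, and the median depth was 736000 reads. Neither alpha2 gene had a read in 159 cells, or 15.9% (13.7% to 18.3%), of which 77 were Zeb2-positive, and Hrh3 had a read in 75.5% of them and Adra1b in 63.5%. The 18 cells with a read of Adrb1 or Drd1 came from 8 plates, with 1 cell from pDR, and had 4 to 7 members.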
